A study of Mus musculus with 6 samples.

Results

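The genes described here are the enzyme families that modify foreign compounds in mouse small intestinal organoids: cytochromes P450 of families 1 to 4 (Cyp), glutathione S-transferases (Gst), UDP-glucuronosyltransferases (Ugt), carboxylesterases (Ces) and sulfotransferases (Sult). Members were chosen by their symbol and by a total of 50 or more unique molecular identifiers (UMIs, counted transcripts) over all 6 libraries. Of 150 symbols that match, 88 were members: 38 of 81 Cyp, 19 of 20 Gst, 14 of 19 Ugt, 12 of 15 Ces and 5 of 15 Sult genes. Of the other 62 symbols, 26 had 0 UMIs. The table holds 32285 genes. Just above the limit were Cyp3a44 (84 UMIs), Cyp2c40 (70) and Cyp2w1 (70), and just below it Cyp2d9 (49), Cyp1b1 (44) and Ces2f (42).

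The study asked what blocking proton export does to intestinal cells, by single-cell RNA sequencing of organoids grown from adult mice and collected on day 3. Wild-type (WT) organoids were grown with the vehicle DMSO (-EIPA, 2 libraries) or with 5 µM EIPA, an amiloride derivative that inhibits sodium-proton exchange (+EIPA, 2 libraries). A second line was transduced with lentivirus for doxycycline-inducible CRISPR-Cas9 silencing of a target gene, selected with puromycin and derived from single clones; both of its groups carry these inserts, and they were grown without doxycycline (-Dox, 1 library) or with 2 µg/mL doxycycline (+Dox, 1 library). Live cells were sorted, and in +Dox only GFP-positive live cells. Doxycycline as a drug, Cas9 induction, editing of the target and the GFP gate therefore cannot be told apart, and EIPA as a drug cannot be told apart from its inhibition of proton export. The study's methods describe the WT replicates as separate preparations and both CRISPR groups as a single preparation; whether the preparations came from separate animals is not given in the sources used here, so p-values measure the spread between preparations.

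Drug metabolism runs in steps. P450 enzymes and carboxylesterases expose or create a reactive group, transferases then attach glutathione, glucuronic acid or sulfate, and carriers move the product out of the cell. In the intestine this machinery is known to be strongest in enterocytes, the absorptive cells of the villus, and is controlled by sensors of foreign compounds such as the pregnane X receptor (Nr1i2), the aryl hydrocarbon receptor (Ahr) and NRF2 (Nfe2l2).

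The libraries held 14319 to 25481 barcodes, of which 12083 to 18211 cells passed the limits of 1000 or more genes and less than 20% mitochondrial UMIs, with 161670015 to 239368573 UMIs per library. Between 235 and 331 of the kept barcodes of a library also occurred in another. Clusters were built without the enzyme genes and named from fixed markers. The enterocyte-like share of the cells was 18.54% and 13.83% in -EIPA, 21.66% and 18.52% in +EIPA, 22.78% in -Dox and 27.59% in +Dox. With finer clusters (resolution 1.2), where a cluster led by Gstm3 and Arg2 took no name, it was 10.9% and 7.89%, 15.1% and 13.5%, 14.4% and 21.6%, and the WT groups no longer overlapped. Tests compared the level of a gene between samples. Levels of different genes were ranked and summed without a test. In sums over all cells, more enterocytes and more RNA per enterocyte cannot be told apart.

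In untreated WT organoids most of these enzymes were at their highest level in enterocyte-like cells. Of the 88 members, 56 had their highest mean level, in counts per 1000000 UMIs (CPM), in enterocyte-like cells, 14 in revival-like cells (a cluster with Clu, Anxa1 and Ly6a, of 102 cells in -EIPA replicate 1 and 231 in replicate 2; 4 of the 14 were above their enterocyte-like level in both libraries, 8 in replicate 1 alone and 2 in replicate 2 alone), 7 in stem-cell-like (ISC-like) cells, 5 in enteroendocrine-like (EEC-like), 4 in tuft-like and 2 in Goblet/Paneth-like cells. Among the 61 members with a mean of at least 1 CPM over the libraries, 46 were highest in enterocyte-like cells (75.4%, against 9.7% of 11521 genes at that level); the other 27 members are too low for their order to be read. These orders of class means carry no test. A higher level does not mean that most of the RNA is there: of the Gsto1 UMIs in untreated WT libraries, 17.2% and 13.6% came from enterocyte-like cells, against 75.6% and 67.8% of the Gsta1 UMIs. Ugt2b5, a glucuronosyltransferase, was at 97.5 CPM in enterocyte-like and 0.973 CPM in ISC-like cells. Cyp3a11, a major drug-oxidising P450, was at 91.1 CPM in enterocyte-like and 1.81 CPM in ISC-like cells, and Gsta1, an alpha-class glutathione transferase, at 2341 and 33.3 CPM. A few members ran the other way. Gstm5, a mu-class transferase, was at 42.5 CPM in enterocyte-like and 91.7 CPM in ISC-like cells, and Cyp4b1 was highest in EEC-like cells, at 59.7 CPM. Gsto1, an omega-class transferase with thiol-reducing activity, lay between 201 and 393 CPM over the classes.

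With EIPA, the summed level of all members in all cells was higher in both treated libraries. It was 4277 and 3485 CPM in -EIPA against 6756 and 6695 CPM in +EIPA, and 3857 CPM in -Dox against 5840 CPM in +Dox. Gst genes held most of it in the WT libraries, at 2355 and 2131 CPM in -EIPA and 4038 and 4058 CPM in +EIPA, and less of it in the CRISPR line, at 1538 CPM in -Dox and 2275 CPM in +Dox. The groups did not overlap for any of the 5 family sums, in which members of high level weigh most. The median log2 fold change of tested members was -0.13 for Ugt, 0.66 for Cyp, 0.32 for Gst, 0.50 for Ces and 0.19 for Sult genes. Of the 13 tested Ugt genes, 7 were Ugt1a genes, whose reads cannot be assigned with certainty among them. Of 88 members, 84 had enough counts to be tested over all cells. Their median log2 fold change was 0.42, against -0.00 over all 15890 genes tested, and 62 were above 0 and 22 below. None of the 84 passed an adjusted p of 0.05 in edgeR's quasi-likelihood test, as 0% of all genes did. Unadjusted, 35 passed, all higher, against 10.1% of all genes. With the replicate block, which pairs libraries of the same experiment, 31 of 84 passed, all higher, against 5.28% of all genes, and with DESeq2 27 of 84 passed, all higher, against 3.66%. The paired fit leaves 1 residual degree of freedom, so its p-values rest on the spread shared across genes.

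Markers of enterocytes moved in the same samples. The summed CPM of 16 enterocyte markers over all cells was 8398 and 4683 in -EIPA, 14885 and 13118 in +EIPA, 10052 in -Dox and 21190 in +Dox, with 16 of 16 markers above 0 on the log2 scale in both comparisons and none at 0 CPM. Within enterocyte-like cells the marker sum still ran from 39647 and 26410 CPM in -EIPA to 56297 and 56708 CPM in +EIPA, and from 38546 CPM in -Dox to 63587 CPM in +Dox. The part of these markers in the enzyme results was not tested. Ada, 1 of the 16, was not highest in enterocyte-like cells. Its ISC-like level was 347% and 384% of the enterocyte-like level in -EIPA. Immune markers summed to at most 0.908 CPM in any library over all cells.

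Within enterocyte-like cells, where most members had their highest mean level in untreated WT organoids, 73 members were tested. Their median log2 fold change was 0.42, against -0.04 over all 12619 genes. None passed the adjusted edgeR test (0% of all genes), 33 passed unadjusted, all higher (15.7% of all genes), 22 passed with DESeq2, all higher (3.71%), and 23 passed with the replicate block, all higher (3.78%). By family and in the paired fit, 11 of 27 tested Cyp, 6 of 18 Gst, 1 of 12 Ugt, 3 of 12 Ces and 2 of 4 Sult genes passed, with none lower in any family.

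**Figure D1:**
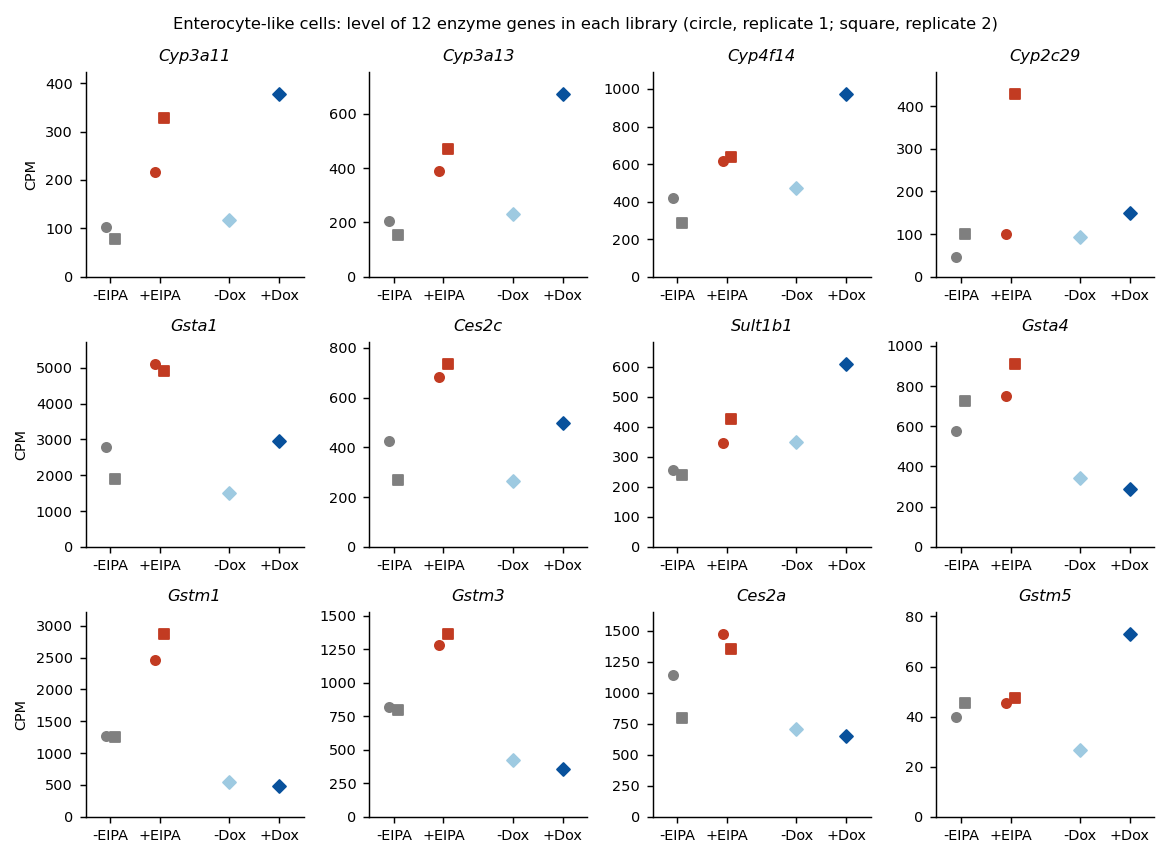
Level of 12 enzyme genes in enterocyte-like cells, in CPM on linear axes that start at 0, with 1 point per library (grey -EIPA, red +EIPA, light blue -Dox, dark blue +Dox; circles replicate 1, squares replicate 2). Both +EIPA points of Gstm1 (2466 and 2873 CPM) lie above both -EIPA points (1274 and 1251 CPM), while -Dox and +Dox lay near each other at 543 and 489 CPM.

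Among the P450 genes, Cyp3a11, Cyp3a13 and Cyp3a25 of the Cyp3a subfamily, which oxidises a wide range of drugs and steroids, were higher in every treated library than in its controls. Cyp3a11 in enterocyte-like cells was at 103 and 79.0 CPM in -EIPA and 216 and 329 CPM in +EIPA, and at 118 CPM in -Dox and 378 CPM in +Dox (exact 95% Poisson interval 373 to 382, which covers counting error only). The -EIPA and +EIPA libraries did not overlap, and on the log2 scale the change came to 1.72 (SE 0.26, adjusted p = 0.104 with edgeR, and 0.0145 with the replicate block). Cyp3a13 went from 207 and 153 CPM to 390 and 469 CPM with EIPA (log2 fold change 1.39, SE 0.21, adjusted p = 0.104, and 0.0145 with the block), and from 233 CPM to 673 CPM with Dox. For Cyp3a25 the values were 70.7 and 55.1 CPM without and 104 and 136 CPM with EIPA, and 103 CPM and 197 CPM without and with Dox. The Dox ratios of these genes, on the log2 scale, were 1.68, 1.53 and 0.94, from 1 library a group and without a test. The other Cyp3a members, Cyp3a44 and Cyp3a59, were low; Cyp3a59 was at 0.435 and 0.668 CPM in -EIPA and 0.313 and 0.691 CPM in +EIPA, with overlapping groups.

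Of P450 family 4, whose enzymes hydroxylate fatty acids and eicosanoids, Cyp4f14, Cyp4f16 and Cyp4b1 were higher in +EIPA than in -EIPA and in +Dox than in -Dox. Cyp4f14 was at 421 and 287 CPM in -EIPA, 618 and 635 CPM in +EIPA, 473 CPM in -Dox and 974 CPM in +Dox. Cyp4f16, of the same gene cluster, was at 97.4 and 89.3 CPM, 204 and 215 CPM, 50.3 CPM and 89.0 CPM. Its EIPA log2 fold change was 1.30 (SE 0.14, adjusted p = 0.0733 with edgeR, and 0.00691 with the block). Cyp4b1 was at 17.6 and 9.99 CPM in -EIPA, 31.1 and 36.4 CPM in +EIPA, 9.78 CPM in -Dox and 39.0 CPM in +Dox, a Dox log2 ratio of 2.00. In the EEC-like class, where its level was highest, Cyp4b1 was at 70.8 and 48.6 CPM in -EIPA and 55.1 and 44.5 CPM in +EIPA, so the groups overlapped there.

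The Cyp2 genes given here had unlike values. Cyp2j6, an epoxygenase of arachidonic acid, was at 463 and 421 CPM in -EIPA and 637 and 766 CPM in +EIPA (log2 fold change 0.81, SE 0.17, adjusted p = 0.135, and 0.0386 with the block), and at 352 CPM in -Dox and 630 CPM in +Dox. Cyp2c29 had the largest EIPA log2 fold change of the members with a mean of at least 5 CPM over all cells, 2.41 (SE 0.69, adjusted p = 0.370, and 0.0343 with the block), but 1 library carried much of it. In enterocyte-like cells Cyp2c29 was at 46.8 and 101 CPM in -EIPA, 100 and 428 CPM in +EIPA, 93.6 CPM in -Dox and 149 CPM in +Dox, so +EIPA replicate 1 lay at the level of -EIPA replicate 2. Cyp2c65, of the same Cyp2c gene cluster, was at 162 and 145 CPM without and 151 and 190 CPM with EIPA, with overlapping WT groups. Without and with Dox Cyp2c65 was at 133 and 148 CPM.

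Carboxylesterases cleave ester drugs and lipids. Ces2c in enterocyte-like cells was at 426 and 268 CPM in -EIPA, 685 and 736 CPM in +EIPA (log2 fold change 1.17, SE 0.25, adjusted p = 0.136, and 0.0245 with the block), 263 CPM in -Dox and 499 CPM in +Dox. Ces2a, of the same gene cluster on chromosome 8, was at 1140 and 797 CPM, 1475 and 1353 CPM, 707 CPM and 648 CPM. Ces2a was thus higher in both +EIPA libraries and slightly lower in +Dox. Ces2e was at 568 and 386 CPM, 631 and 545 CPM, 508 CPM and 624 CPM, with overlapping WT groups. Ces1f was at 164 and 132 CPM without and 166 and 143 CPM with EIPA, and at 41.6 and 33.8 CPM in -Dox and +Dox, so here the lines lay further apart than the treatments.

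Among conjugating enzymes, Sult1b1, a sulfotransferase for phenols and thyroid hormone, was at 254 and 239 CPM in -EIPA, 347 and 425 CPM in +EIPA, 350 CPM in -Dox and 609 CPM in +Dox (EIPA log2 fold change 0.79, SE 0.17, adjusted p = 0.135, and 0.0371 with the block). Sult2b1, which sulfates cholesterol, was at 106 and 85.1 CPM, 137 and 122 CPM, 57.3 CPM and 59.1 CPM, higher in both +EIPA libraries and near its control in +Dox. Ugt2b5 was at 93.7 and 101 CPM in -EIPA and 139 and 166 CPM in +EIPA (log2 fold change 0.79, SE 0.15, adjusted p = 0.117, and 0.0220 with the block), and at 178 and 209 CPM in -Dox and +Dox. The other 3 Ugt genes of highest level, Ugt2b34, Ugt2a3 and Ugt2b35, had EIPA log2 fold changes of 0.43, 0.24 and 0.12 in these cells, and none passed the paired fit. Reads of the Ugt1a genes cannot be assigned with certainty, since 58.3% to 100% of the 91-base windows at their transcript ends are shared among them, and they are not interpreted singly.

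Gsta1 had the most UMIs of all members. In enterocyte-like cells it was at 2785 and 1897 CPM in -EIPA and 5115 and 4913 CPM in +EIPA (log2 fold change 1.23, SE 0.23, adjusted p = 0.115, and 0.0167 with the block), and at 1497 CPM in -Dox and 2951 CPM in +Dox. Its near-copy Gsta2 was at 92.9 and 91.3 CPM, 177 and 313 CPM, 51.0 CPM and 74.1 CPM. Of the windows at the Gsta1 transcript end, 81.6% are shared with Gm3776, Gm10639 or Gsta2, so the split of reads between them is uncertain; Gm3776 itself, over all cells, was at 75.8 and 60.4 CPM in -EIPA, 203 and 286 CPM in +EIPA, 43.8 CPM in -Dox and 96.1 CPM in +Dox. Gsta4, which acts on products of lipid peroxidation, was at 576 and 726 CPM, 752 and 911 CPM, 341 CPM and 288 CPM, higher in both +EIPA libraries and lower in +Dox.

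The enterocyte-like class joins 5 clusters, and their mix moved with treatment. Cluster 4, led by Fabp1 and Apoc3, held 6.31% and 3.29% of the kept cells in -EIPA, 9.25% and 7.70% in +EIPA, 8.94% in -Dox and 15.4% in +Dox. Cluster 5, led by Gstm3 and Arg2, held 7.82% and 6.34%, 7.14% and 5.88%, 9.15% and 7.49%. Cyp3a11 was at 194 and 186 CPM in cluster 4 but 18.8 and 15.2 CPM in cluster 5 of the -EIPA libraries. Within cluster 4 Cyp3a11 was at 323 and 469 CPM in +EIPA (log2 fold change 1.19, SE 0.21, adjusted p = 0.150, and 0.00379 with the block), and at 192 CPM in -Dox and 472 CPM in +Dox, a smaller EIPA change than the 1.72 of the whole class. Within cluster 5 it was at 57.3 and 104 CPM in +EIPA (2.36, SE 0.31, adjusted p = 0.0506, and 3.56e-05 with the block), and within cluster 10 its change was 2.06 (SE 0.38, adjusted p = 0.0379, and 0.000258 with the block). The part of the cluster mix in the other results of the class was not tested.

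The clusters with at least 50 cells in every library, 4, 5 and 10, were fitted alone, an analysis added after the data were seen; clusters 21 and 22 had fewer cells in some libraries and were not. In cluster 4 (68 members tested), no member passed the adjusted edgeR test (0.00898% of all genes), 28 passed unadjusted (12.6%) and 15 passed with the replicate block, all higher (2.14%). In cluster 5 (65 tested), 1 passed, Gstm4 (0.138% of all genes), and 29 passed with the block, all higher (6.11%). In cluster 10, led by Apoa4 and Apob (61 tested), 10 passed, all higher (1.57%), and 21 passed with the block, all higher (7.03%). The 10 were Cyp3a11, Cyp3a13, Cyp2c29, Cyp4b1, Cyp4f14, Cyp4f16, Cyp4v3, Ces2c, Gsta2 and Gstm4, with log2 fold changes from 1.17 for Cyp4f16 to 3.02 for Cyp2c29. Cells of cluster 10 had a median of 0.345 times the UMIs of their libraries' cells. Cyp3a13 there was at 282 and 167 CPM in -EIPA, 741 and 903 CPM in +EIPA, 361 CPM in -Dox and 1433 CPM in +Dox.

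The mu-class glutathione transferases had unlike values with EIPA and with Dox. All 7 lie in 1 cluster on chromosome 3 (GRCm38, chr3:107895821-108044894), in the order Gstm5, Gstm7, Gstm6, Gstm3, Gstm2, Gstm1 and Gstm4, with Gstm5 on the plus strand and the others on the minus strand. Gstm1 in enterocyte-like cells was at 1274 and 1251 CPM in -EIPA and 2466 and 2873 CPM in +EIPA, and at 543 CPM in -Dox against 489 CPM in +Dox, with intervals of 536 to 550 and 484 to 495. On the log2 scale it changed by 1.22 with EIPA (SE 0.17, adjusted p = 0.104, and 0.0143 with the block) and by -0.15 with Dox. Gstm3 was at 820 and 796 CPM, 1283 and 1366 CPM, 427 CPM and 358 CPM (EIPA 0.85, SE 0.15, adjusted p = 0.114, and 0.0246 with the block; Dox -0.26). Gstm4 was at 37.2 and 34.5 CPM, 87.0 and 111 CPM, 18.2 CPM and 23.8 CPM (EIPA 1.61, SE 0.17, adjusted p = 0.0733, and 0.00600 with the block; Dox 0.38). Gstm7, Gstm6 and Gstm2 had EIPA log2 fold changes of 0.46, 0.58 and 0.49 beside Dox log2 ratios of 0.18, 0.16 and -0.73. The median Dox log2 ratio over all genes at 5 CPM or more in these cells was -0.082.

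Gstm5, at the other end of the cluster, showed the reverse. It was at 39.7 and 45.3 CPM in -EIPA and 45.6 and 47.3 CPM in +EIPA, a change of 0.27 on the log2 scale (SE 0.13, adjusted p = 0.357), and at 26.7 CPM in -Dox against 73.1 CPM in +Dox, with intervals of 25.3 to 28.2 and 71.0 to 75.2, giving a log2 ratio of 1.45. In the other classes with enough cells Gstm5 had Dox log2 ratios of 1.18 in ISC-like, 1.26 in proliferating-like, 1.18 in Goblet/Paneth-like, 1.24 in revival-like and 2.01 in EEC-like cells, beside EIPA log2 fold changes of 0.13, 0.07, 0.21, 0.0090 and 0.10. The EEC-like class of the CRISPR line had far lower summed EEC markers than that of WT. The difference between the EIPA and Dox values of a gene was not tested, because the Dox groups have 1 library each.

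**Figure D2:**
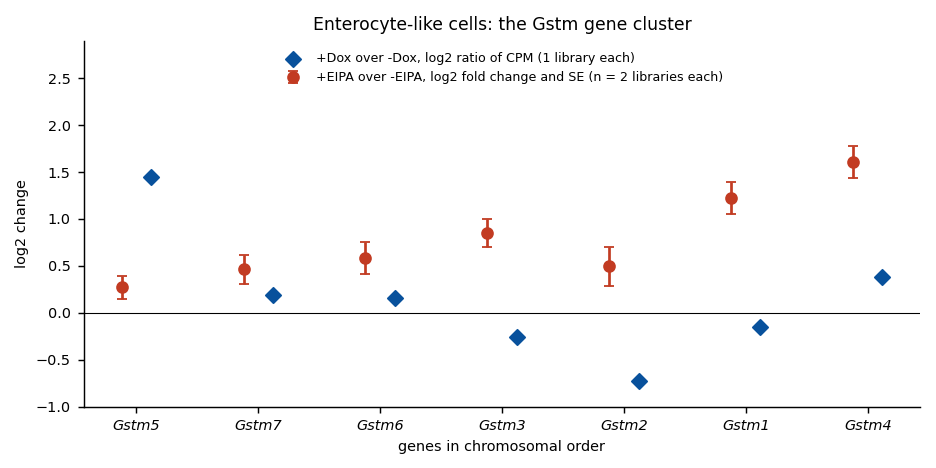
The 7 Gstm genes in chromosomal order, with the EIPA log2 fold change ± SE (2 against 2 libraries) and the Dox log2 ratio (1 against 1 library, no error) in enterocyte-like cells. Gstm1, Gstm3 and Gstm4 had EIPA values of 1.22, 0.85 and 1.61 beside Dox ratios of -0.15, -0.26 and 0.38, and Gstm5 had 0.27 beside 1.45.

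Promoter sequences are shown for Gstm5, Gstm3 and Gstm1 because these genes of the same cluster had unlike values with EIPA and with Dox. This difference was not tested. They are from RefSeq (GRCm38.p6) and run 5′ to 3′ on the gene's own strand from 250 bases before to 50 bases after the transcript start: Gstm5 chr3:107895604-107895903 (plus strand), Gstm3 chr3:107969125-107969424 (minus) and Gstm1 chr3:108017924-108018223 (minus). Capitals mark matches, on either strand, to TGACNNNGC (the core of the antioxidant response element, bound by NRF2), GCGTG (the core of the element bound by the aryl hydrocarbon receptor), AGGTCA (a partial site of nuclear receptors) or GTTAAT (a partial site of HNF1).
Gstm5: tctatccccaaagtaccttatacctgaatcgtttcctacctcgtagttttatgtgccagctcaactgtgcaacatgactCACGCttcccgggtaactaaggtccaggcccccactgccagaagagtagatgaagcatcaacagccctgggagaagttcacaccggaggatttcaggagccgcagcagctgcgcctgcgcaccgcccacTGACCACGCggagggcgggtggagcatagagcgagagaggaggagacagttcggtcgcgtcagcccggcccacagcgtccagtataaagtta
Gstm3: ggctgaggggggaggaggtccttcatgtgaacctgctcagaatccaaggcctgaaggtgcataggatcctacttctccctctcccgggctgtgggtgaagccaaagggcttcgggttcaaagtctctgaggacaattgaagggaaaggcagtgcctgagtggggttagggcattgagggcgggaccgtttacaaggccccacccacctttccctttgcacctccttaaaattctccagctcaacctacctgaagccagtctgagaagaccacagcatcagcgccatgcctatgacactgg
Gstm1: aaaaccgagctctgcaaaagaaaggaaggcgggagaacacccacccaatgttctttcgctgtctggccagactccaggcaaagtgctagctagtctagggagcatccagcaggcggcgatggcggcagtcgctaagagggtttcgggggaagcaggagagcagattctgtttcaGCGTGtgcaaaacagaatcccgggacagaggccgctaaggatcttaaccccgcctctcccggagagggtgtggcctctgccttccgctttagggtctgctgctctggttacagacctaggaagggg
The Gstm5 window held a match to TGACNNNGC, overlapping a match to GCGTG on the other strand, and a further GCGTG match upstream. The Gstm1 window held 1 match to GCGTG, and the Gstm3 window held none of the 4 motifs. A match describes letters and not binding.

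Promoters of Cyp3a11 (chr5:145879805-145880104, minus strand) and Gsta1 (chr9:78230419-78230718, plus strand) are shown with the same marks, as genes that were higher in all treated libraries.
Cyp3a11: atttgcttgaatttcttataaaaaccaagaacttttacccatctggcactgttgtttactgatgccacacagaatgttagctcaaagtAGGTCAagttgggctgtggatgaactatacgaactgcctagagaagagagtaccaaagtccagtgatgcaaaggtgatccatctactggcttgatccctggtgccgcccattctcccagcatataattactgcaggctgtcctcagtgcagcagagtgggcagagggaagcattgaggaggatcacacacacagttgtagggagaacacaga
Gsta1: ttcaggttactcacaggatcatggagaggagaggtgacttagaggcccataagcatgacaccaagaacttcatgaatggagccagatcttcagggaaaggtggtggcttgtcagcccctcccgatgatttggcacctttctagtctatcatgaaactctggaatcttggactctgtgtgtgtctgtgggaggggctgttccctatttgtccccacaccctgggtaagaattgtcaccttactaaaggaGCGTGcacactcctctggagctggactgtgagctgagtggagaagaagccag
Cyp3a11 held 1 match to AGGTCA and Gsta1 held 1 match to GCGTG. RefSeq promoters were found for 76 of 88 members. TGACNNNGC occurred in 5 of them (6.58%, against 12.4% of 32851 promoters), GCGTG in 17 (22.4% against 32.4%), AGGTCA in 16 (21.1% against 16.3%) and GTTAAT in 11 (14.5% against 7.10%).

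Members passed the adjusted edgeR test in Goblet/Paneth-like cells. There 64 members were tested and 5 rose with EIPA, none fell, against 0.261% of 12622 genes. Gsta1 was at 130 and 114 CPM in -EIPA and 347 and 381 CPM in +EIPA (log2 fold change 1.67, SE 0.13, adjusted p = 0.0200), with 106 CPM in -Dox and 259 CPM in +Dox. Cyp3a13 was at 17.5 and 12.9 CPM, 38.8 and 40.6 CPM (1.49, SE 0.15, adjusted p = 0.0262), 30.04 CPM and 87.0 CPM. Gstm3 was at 67.5 and 64.3 CPM, 115 and 114 CPM (0.88, SE 0.10, adjusted p = 0.0290), 60.2 CPM and 49.2 CPM.

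The other 2 were low. Gstm4 was at 4.09 and 4.66 CPM in -EIPA and 10.7 and 10.2 CPM in +EIPA (1.33, SE 0.15, adjusted p = 0.0304), with 4.39 CPM in -Dox and 5.55 CPM in +Dox. Ugt2b5 was at 4.48 and 5.06 CPM, 10.8 and 11.3 CPM (1.29, SE 0.15, adjusted p = 0.0405), 17.0 CPM and 20.8 CPM. All 5 had WT groups that did not overlap, but they were picked by the test on these same libraries. Of the 64 tested members, 32 were higher and 5 lower without overlap, against 9.27% and 29.1% of all genes. The 5 calls were lost without -EIPA replicate 2, as were those of all other genes in this class. Unadjusted, 26 members were higher and 1 lower (6.6% of all genes). With DESeq2 15 passed, all higher (0.99%), and with the replicate block 29 passed, all higher (6.31%).

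The Goblet/Paneth-like class joins 4 clusters, and their mix moved too. Cluster 7, led by the goblet genes Agr2 and Fcgbp, held 54.7% and 50.3% of the class in -EIPA, 45.2% and 41.8% in +EIPA, 52.6% in -Dox and 39.5% in +Dox, and cluster 8, led by the Paneth genes Lyz1 and Ang4, held 29.3% and 32.9%, 35.02% and 35.9%, 34.3% and 44.6%. Within clusters 7 and 8 the WT groups of the 5 members also stayed apart. In cluster 7 Gsta1 was at 135 and 124 CPM in -EIPA and 416 and 476 CPM in +EIPA. In cluster 8 it was at 66.7 and 61.9 CPM and 173 and 162 CPM. The WT groups of Ugt2b5 overlapped in cluster 14. The 5 members were picked by the test on the joined class, which holds these same cells, so the cluster values are no separate support. These values per cluster were not tested.

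Enterocyte markers moved in the same Goblet/Paneth-like cells. Of 16 tested, 7 passed (among them Alpi, Fabp1, Apoa1, Apoc3, Rbp2 and Krt20), and the sum of the 16 was 2043 and 1627 CPM in -EIPA, 4081 and 3725 CPM in +EIPA, 3048 CPM in -Dox and 5961 CPM in +Dox, with none at 0. The level in Goblet/Paneth-like as a percentage of that in enterocyte-like cells of the same library was 4.69% to 7.76% for Gsta1, 8.44% to 9.93% for Cyp3a13, 8.08% to 8.95% for Gstm3, 9.20% to 13.5% for Gstm4 and 4.78% to 7.75% for Ugt2b5 over the WT libraries. In -Dox and +Dox this percentage was 7.11% and 8.78% for Gsta1, 12.9% and 12.9% for Cyp3a13 and 14.1% and 13.7% for Gstm3. For Gstm4 it was 24.1% and 23.3%, and for Ugt2b5 9.57% and 9.95%. The median of the same percentage over the 16 markers was 5.58% and 6.81% in -EIPA, 9.80% and 7.196% in +EIPA, 8.80% in -Dox and 9.70% in +Dox. The part of enterocyte RNA in these droplets in the 5 results was not tested. With called doublets removed 3 members passed.

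**Figure D3:**
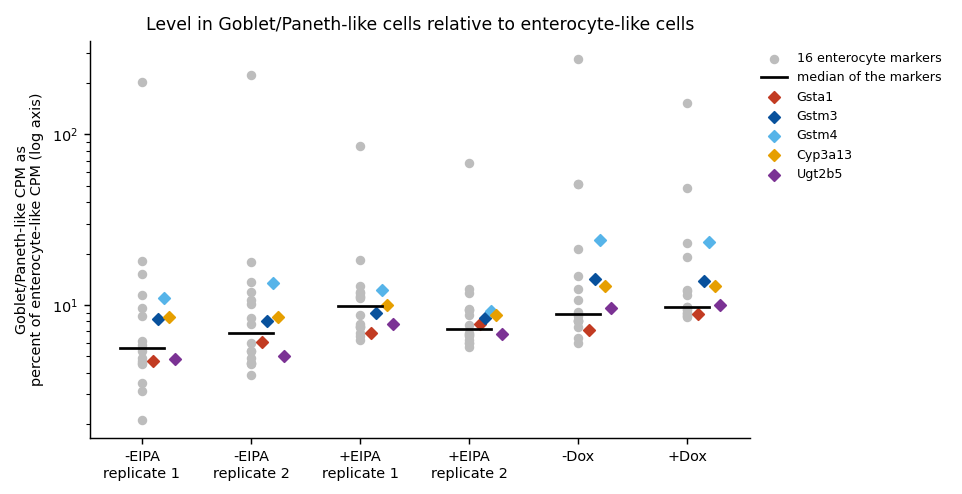
Level in Goblet/Paneth-like cells as a percentage of the level in enterocyte-like cells of the same library, on a log axis, for the 5 members called there (coloured), 16 enterocyte markers (grey) and the markers' median (bars). The members lay between 4.69% and 13.5% in the WT libraries, where the marker medians lay between 5.58% and 9.80%.

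In EEC-like cells 59 members were tested, with a median log2 fold change of 0.33 against 0.00 over all genes. None passed the adjusted edgeR test (0.0163% of 12284 genes), 21 passed unadjusted, all higher (2.81%), 4 with DESeq2, all higher (0.204%), and 20 with the replicate block, all higher (1.8%). Cyp3a11 was at 5.09 and 2.17 CPM in -EIPA, 16.7 and 18.01 CPM in +EIPA, 6.57 CPM in -Dox and 31.02 CPM in +Dox. These are 2.75% to 8.21% of its level in enterocyte-like cells of the same library, below the median of 7.96% to 10.4% over the 16 enterocyte markers in every library; single markers lay far higher, among them Krt20 at 70.5% to 137%. The part of enterocyte RNA in these values was not tested. Summed EEC markers in this class were 34540 to 42652 CPM in the WT libraries but 3752 and 4671 CPM in -Dox and +Dox, and 15 of 15 tested enterocyte markers were above 0 with EIPA. In revival-like cells 61 members were tested and none passed (0% of 10564 genes), 3 passed unadjusted (1.31%), and 0 passed with DESeq2 (0.0189%) or the block (0.0284%).

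Toward the base of the crypt the members' median changes lay near 0, in classes that depend on the library correction. Without it, single ISC-like clusters drew 90.5% of their cells from +EIPA replicate 2 or 97.9% from +Dox. A proliferating-like cluster drew 98.6% from +Dox. ISC-like cells of +EIPA replicate 2 then numbered 2831, against 1472 with the correction. The values below are from the corrected clusters. In ISC-like cells the median log2 fold change of 60 tested members was -0.04, against -0.00 over all genes, and the summed level was 1815 and 1975 CPM in -EIPA, 1824 and 1984 CPM in +EIPA, 1671 CPM in -Dox and 1621 CPM in +Dox. None passed the adjusted edgeR test (0% of 11963 genes), 4 were higher and 4 lower unadjusted (3.73%), 1 was higher with DESeq2 (0.184%), and 9 were higher and 4 lower with the replicate block (7.21%). In proliferating-like cells the median over 70 members was 0.04, and the summed level was 2039 and 2096 CPM in -EIPA, 2218 and 2272 CPM in +EIPA, 1975 CPM in -Dox and 1942 CPM in +Dox, higher in both +EIPA libraries. None passed (0% of 13652 genes), 12 were higher and 5 lower unadjusted (4.63%), 6 higher and 1 lower with DESeq2 (0.901%), and 19 higher and 8 lower with the block (7.43%).

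Sult1d1, a sulfotransferase for catecholamines and phenols, was lower with both treatments in these cells. In proliferating-like cells it was at 75.8 and 70.8 CPM in -EIPA, 47.7 and 46.4 CPM in +EIPA, 99.4 CPM in -Dox and 51.6 CPM in +Dox, with an EIPA log2 fold change of -0.58 (SE 0.07, adjusted p = 0.170 with edgeR, 8.06e-07 with the block and 5.89e-07 with DESeq2). In ISC-like cells it was at 39.6 and 31.1 CPM, 22.3 and 18.1 CPM, 50.01 CPM and 23.8 CPM (-0.74, SE 0.16, adjusted p = 0.999, and 7.73e-14 with the block). In enterocyte-like cells, where its level was highest, Sult1d1 was at 293 and 293 CPM in -EIPA, 291 and 340 CPM in +EIPA, 366 CPM in -Dox and 381 CPM in +Dox, with overlapping WT groups. Ugt2a3 in ISC-like cells was at 8.18 and 6.02 CPM, 3.27 and 3.79 CPM, 26.2 CPM and 19.1 CPM (-0.92, SE 0.22, adjusted p = 0.999, and 2.31e-05 with the block). In ISC-like cells of the WT libraries Sult1d1 was at 5.32% to 13.5% and Ugt2a3 at 4.86% to 12.2% of its enterocyte-like level. The enterocyte markers had a median of 2.07% to 2.28% there. Single markers lay as high, among them Slc5a1 at 6.80% to 18.5% and Fabp2 at 3.79% to 11.1%, and Ada lay at 110% to 384%. The part of enterocyte RNA in these values was not tested.

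**Figure D4:**
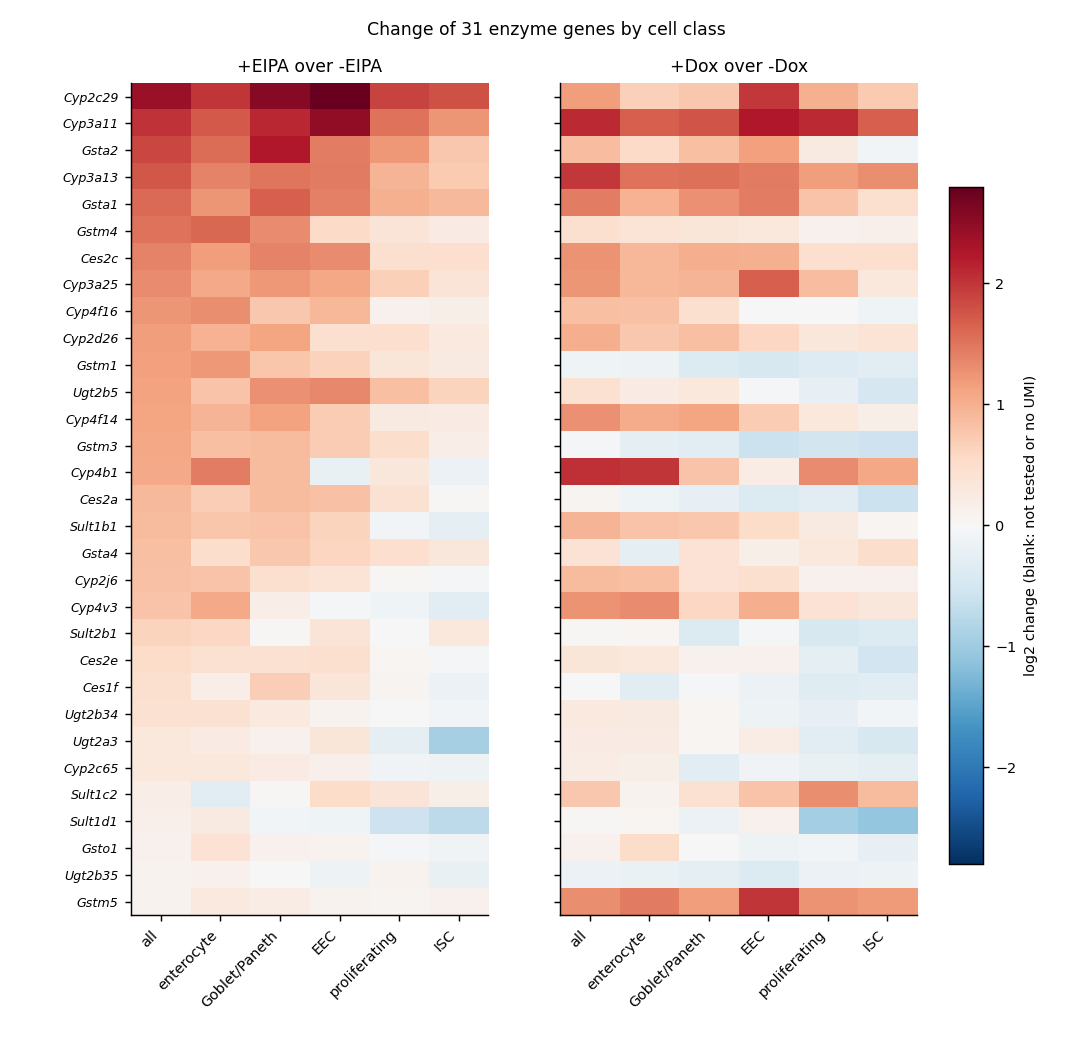
Change of 31 enzyme genes in all cells kept and in 5 cell classes, as the EIPA log2 fold change (left) and the Dox log2 ratio (right), on 1 colour scale in which red is higher and blue lower with treatment. In enterocyte-like cells Gstm1 and Gstm3 are red on the left and near white or blue on the right. They are paler on the left in ISC-like and proliferating-like cells. Gstm5 is pale on the left and red on the right, and Sult1d1 is blue in ISC-like and proliferating-like cells on both sides.

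With Dox, members were counted at a change of 2-fold or more among genes with a mean of at least 5 CPM, which is a description of 2 libraries. Over all cells 11 of 54 such members were 2-fold or more higher and 0 lower, where 2.14% of all genes were higher and 0.249% lower. In enterocyte-like cells the counts were 7 and 0 of 58 (2.03% and 1.26% of all genes), in Goblet/Paneth-like cells 7 and 0 of 50 (0.683% and 0.26%), in EEC-like cells 9 and 2 of 49 (0.763% and 0.472%), in proliferating-like cells 4 and 1 of 45 (0.545% and 0.278%), in ISC-like cells 3 and 2 of 43 (0.397% and 0.254%) and in revival-like cells 14 and 3 of 53 (3.28% and 8.76%). Of the 11 over all cells, 8 were among 19 Cyp, 2 among 16 Gst and 1 among 7 Ces genes, with 0 among 8 Ugt and 4 Sult genes. In enterocyte-like cells 6 of the 7 were Cyp and 1 was Gst. Median Dox log2 ratios there were 0.67 for Cyp, 0.0029 for Gst, -0.077 for Ugt, -0.12 for Ces and 0.080 for Sult. The median was 0.17 over all 58 members and -0.082 over all 8681 genes, so the Ugt median lay near that of all genes. Over all cells the highest Dox log2 ratios were 2.09 for Cyp3a11 (29.1 CPM to 124 CPM), 2.05 for Cyp4b1 (3.91 CPM to 16.1 CPM) and 1.99 for Cyp3a13 (71.3 CPM to 282 CPM). Below 0 the largest were Cyp2s1 at -0.89 (26.3 CPM to 14.2 CPM) and Gstp1, the pi-class transferase, at -0.77 (49.9 CPM to 29.2 CPM), both named after their values were seen. Over all cells Gstp1 was at 73.6 and 70.2 CPM in -EIPA and 67.6 and 59.8 CPM in +EIPA. Of the windows at the Gstp1 transcript end, 30.9% are shared with Gstp2 or Gstp-ps, so the split of reads between them is uncertain.

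Set side by side, the treatments share no control library. Over all cells 38 of the 54 members were higher with both, 8 higher with EIPA and lower with Dox, 3 the reverse and 5 lower with both. Over all 9241 genes tested at 5 CPM or more, 30.7%, 13.9%, 8.52% and 46.9% belonged to these groups. Within enterocyte-like cells the members' counts were 33, 18, 2 and 5 of 58, beside 34.4%, 13.1%, 6.19% and 46.4% of 8679 genes. EIPA values here are TMM-scaled and Dox ratios are not, so signs near 0 depend on the scale. With both from unscaled CPM the members' counts over all cells were 38, 8, 3 and 5, beside 21.5%, 4.38%, 17.7% and 56.4% of all genes. In enterocyte-like cells they were 31, 15, 4 and 8, beside 25.2%, 4.36%, 15.3% and 55.1% of all genes there. Across members, which are not independent replicates, Pearson's r of the EIPA log2 fold change with the Dox log2 ratio was 0.685 over all cells and 0.656 in enterocyte-like cells; across all genes at 5 CPM or more it was 0.787 and 0.817. In ISC-like cells r was 0.512 for members and 0.212 for all genes. These values carry no test.

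**Figure D5:**
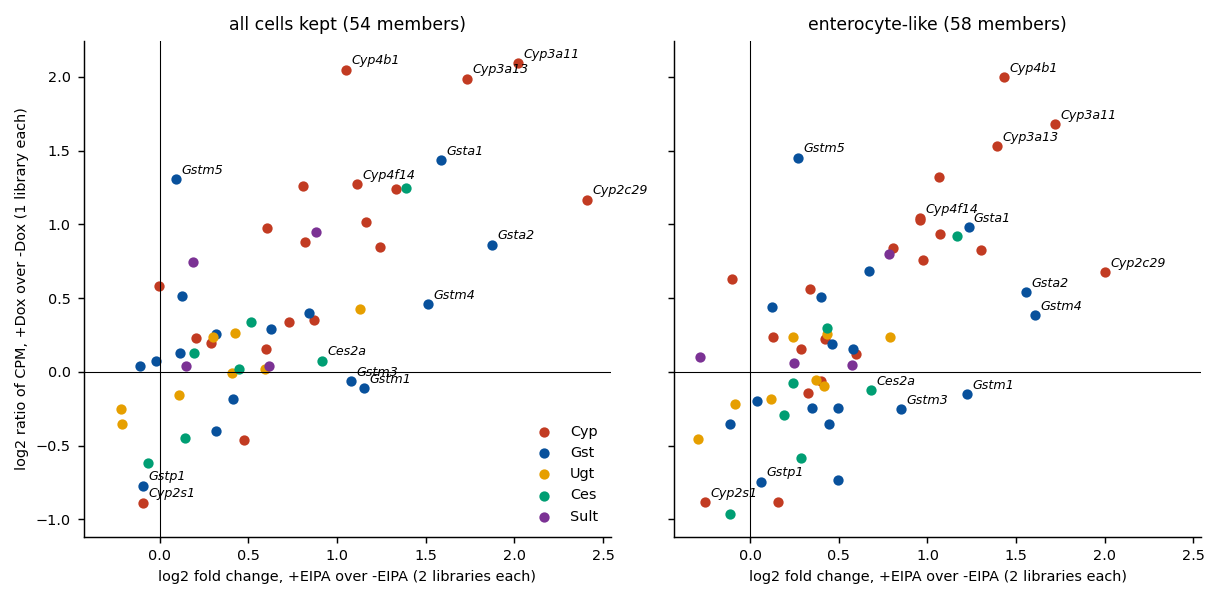
EIPA log2 fold change (horizontal) against Dox log2 ratio (vertical) for members at 5 CPM or more, in all cells kept (54 members) and in enterocyte-like cells (58 members). Most points lie in the upper right, 38 of 54 and 33 of 58, with Cyp3a11 and Cyp3a13 high on both axes, Gstm1 and Gstm3 to the right near 0 with Dox, and Gstm5 high with Dox alone.

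The lines themselves differed in several members before treatment, and line, clone, culture and solvent cannot be told apart. The labels name DMSO for -EIPA and no solvent for the CRISPR groups. Over all cells Gstt1, a theta-class transferase, was at 13.8 to 18.6 CPM in the WT libraries but 1.98 and 3.29 CPM in -Dox and +Dox. Cyp2u1 was at 8.58 to 13.6 CPM in WT and 42.3 and 63.2 CPM in -Dox and +Dox. Both genes were chosen for this after their values were seen.

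The partners of these enzymes were taken from lists of genes outside the 5 families. None passed the adjusted edgeR test over all cells. With the replicate block, 1 of 14 sensors and transcription factors was higher (median log2 fold change -0.01), as were 5 of 10 genes for electron donors and cofactor supply (median 0.36), 9 of 17 tested other enzymes (median 0.42) and 2 of 9 carriers (median 0.30), with none lower in any list, against 5.28% of all genes. Nr1i2 was at 14.8 and 13.0 CPM in -EIPA, 15.0 and 12.5 CPM in +EIPA, 18.8 CPM in -Dox and 18.5 CPM in +Dox, so its groups overlapped. Nfe2l2 was at 207 and 158 CPM, 198 and 175 CPM, 172 CPM and 156 CPM.

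Papss2, which makes the sulfate donor of sulfotransferases, was at 12.7 and 8.79 CPM in -EIPA, 30.2 and 30.3 CPM in +EIPA, 7.28 CPM in -Dox and 24.5 CPM in +Dox, with log2 changes of 1.58 (SE 0.18, adjusted p = 0.239, and 0.0198 with the block) and 1.75. Gclc, the rate-limiting enzyme of glutathione synthesis, was at 46.0 and 45.6 CPM, 53.9 and 57.9 CPM, 46.9 CPM and 37.9 CPM, higher in both +EIPA libraries and lower in +Dox. Abcc3, an exporter of glucuronides, was at 15.2 and 13.1 CPM, 18.6 and 18.5 CPM, 13.6 CPM and 16.5 CPM. Among Goblet/Paneth-like cells, 2 of 17 tested other enzymes, Adh1, an alcohol dehydrogenase, and Aldh1a1, which makes retinoic acid from retinal, rose with EIPA in the adjusted edgeR test (0.261% of all genes), in the same cells in which 7 of 16 enterocyte markers rose. Both calls were lost without -EIPA replicate 2, as were those of all other genes in this class. Adh1 was at 31.7 and 30.7 CPM without and 74.1 and 62.4 CPM with EIPA (log2 fold change 1.21, SE 0.10, adjusted p = 0.0200), and at 82.3 and 81.3 CPM without and with Dox.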

How the data were processed

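All 6 libraries were used. The authors aligned 10x reads to mm10 with Cell Ranger 6.1.2 (submitters' processing notes and methods) and deposited counts of UMIs per gene and barcode, without normalization or removal of doublets or free RNA. Doses are those of the methods for organoid cultures, and the day is from the labels. Members and gene lists were chosen with earlier results of these data known.

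Kept cells had 1000 or more genes and less than 20% mitochondrial UMIs. Pearson residuals of 3000 genes, without members or pathway genes, were reduced to 45 components, corrected for library by Harmony and clustered with Leiden at a resolution of 0.8 (Python 3.11.15, numpy 2.4.6, scipy 1.17.1, scikit-learn 1.9.0, igraph 0.11.9). Clusters took names from fixed marker lists after the clusters had been seen. Doublets were kept and removed in an alternative; calls covered 9.67% to 14.6% of cells.

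Counts were summed per library and class with at least 50 cells in every library. Tuft-like cells fell below this. EIPA was tested in R 4.3.3 with edgeR 4.0.16 (TMM, filterByExpr, quasi-likelihood F test, two-sided, Benjamini-Hochberg over all genes, threshold 0.05), with DESeq2 1.42.0 as an alternative. An exact permutation test of 2 against 2 libraries cannot go below p = 0.333. Dox groups have 1 library each, so CPM, exact Poisson intervals and log2 ratios are given with no test. The gene targeted in the CRISPR line is not reported here. EIPA fold changes use TMM factors and Dox ratios unscaled CPM. The edgeR step was tested on simulated data.

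Replicates 1 and 2 of the WT groups are listed as experiments 1 and 2 in the study's source data, so same-numbered libraries were taken as paired. Their deviations from group means correlated at 0.690 over all cells and at 0.473 to 0.729 in the classes tested.

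Named genes were members called in any class, the 4 of highest level per family, the 10 largest changes with EIPA and with Dox at 5 CPM or more, and those at the limit of 50 UMIs, with up to 4 pathway genes per list. Others named for a stated reason were chosen after their values were seen. Positions are from GENCODE (GRCm38). Windows of 91 bases in the last 500 bases of transcripts were matched to estimate shared reads, and 55 of 88 members shared none. In 19 members more than 10% of the windows were shared, among them Gstm1 (11.6%) and Ces2c (17.2%).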

Additional observations from a re-analysis of the deposited data

Results flagged for a closer look

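Over all cells, 14 of 84 tested members (16.7%, against 16.5% of all genes tested) lay on one side of 0 in both EIPA experiments and on the other with Dox, and in 8 of these the Dox intervals were apart (9.52%, against 6.15%). In 2 of the 8 the WT groups also did not overlap (2.38%, against 2.74%), so the members' share is near that of all genes. Of these, Gstm1 had log2 ratios of 0.98 and 1.16 in the EIPA experiments and -0.11 with Dox, and Gstm3 had 0.88 and 1.14 with EIPA and -0.064 with Dox. The median Dox log2 ratio over all 9243 genes at 5 CPM or more was -0.072. Both genes thus lay near the typical gene with Dox, and their side of 0 depends on the scale. In CPM, Gstm1 was at 396 and 358 in -EIPA, 778 and 800 in +EIPA, 243 in -Dox and 225 in +Dox, and Gstm3 at 209 and 162, 384 and 356, 142 and 136. These differences were not tested, since Dox has 1 library per group, and agent, line, Cas9 induction and gate cannot be told apart.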

How the results depend on the processing

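Calls of members depended on the treatment of the spread between libraries. With the replicate block, which pairs the experiments, 31 members passed over all cells, 23 in enterocyte-like, 13 in ISC-like, 27 in proliferating-like, 29 in Goblet/Paneth-like and 20 in EEC-like cells, against 0, 0, 0, 0, 5 and 0 without it. DESeq2's Wald test gave 27, 22, 1, 7, 15 and 4 in the same order. With no filter on low counts 15, 28, 8, 6 and 25 passed in the first 5 (0.866%, 5.8%, 0.789%, 0.594% and 2.09% of all genes), and 1 in revival-like cells (0.585%). Leaving out a library gave 0 to 12 over all cells (12 without -EIPA replicate 1, 0.83% of all genes), 0 to 29 in enterocyte-like (29 without -EIPA replicate 1, 5 without -EIPA replicate 2 and 6 without +EIPA replicate 1; 9.01%, 0.791% and 0.379%), 0 to 18 in Goblet/Paneth-like (0 without -EIPA replicate 2, 18 without +EIPA replicate 1 and 11 without +EIPA replicate 2; 0%, 1.13% and 0.536%), 0 to 12 in EEC-like (12 without +EIPA replicate 1 and 5 without +EIPA replicate 2; 0.699% and 0.277%) and 0 to 2 in revival-like cells (2 without -EIPA replicate 1, 0.53%), with 0 in ISC-like and proliferating-like cells; the lone library is then assumed to vary like the other group. In enterocyte-like cells 2 passed with doublets removed, with stricter limits on cells or without library correction (0.0822%, 0.153% and 0.13%), and 0, 1 and 10 in clusters 4, 5 and 10 alone, the last added after seeing the data. In Goblet/Paneth-like cells 12 passed with plain library sizes (0.65%), 10 with stricter limits (0.453%), and 3 with doublets removed or without library correction (0.167% and 0.143%); in EEC-like cells 1 passed with stricter limits (0.0327%). The causes were not tested. Signs turned for small values over all cells: with a library left out Gstm5 lay between -0.033 (without +EIPA replicate 2; -0.011 without -EIPA replicate 1) and 0.21, Gsto1 between -0.017 (without +EIPA replicate 2) and 0.23, and Sult1c2 between -0.22 (without -EIPA replicate 2) and 0.74. The Dox ratios have no replicate, so their error beyond counting is unknown.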

Other observations

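In revival-like cells, a cluster led by Tm4sf4, Clu and Anxa1, the untreated WT libraries differed from each other. With 102 cells in -EIPA replicate 1 and 231 in replicate 2, the summed level of all members was 16235 and 7143 CPM, against 13092 and 11208 CPM in enterocyte-like cells, and the median level of 16 enterocyte markers was 160% and 47.2% of that in enterocyte-like cells. Ces2c was at 838 and 121 CPM there against 426 and 268 CPM in enterocyte-like cells, so its higher mean in revival-like cells rests on replicate 1, as do those of Sult2b1, Cyp2c29, Cyp4v3 and 4 members of low level. Cyp3a13 was at 1331 and 200.3 CPM against 207 and 153 CPM, and Gsta1 at 6575 and 1966 CPM against 2785 and 1897 CPM, both with most of the difference in replicate 1. Gsta4 was at 1482 and 1631 CPM against 576 and 726 CPM, higher in both libraries. These values carry no test.

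Gstt1 in EEC-like cells was at 99.6 and 71.4 CPM in -EIPA and 89.5 and 71.2 CPM in +EIPA, but at 0.626 CPM in -Dox against 1.61 CPM in +Dox, with exact Poisson intervals of 0.0758 to 2.26 and 0.855 to 2.75, in a class where the summed EEC markers of the CRISPR line were also lower.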
